A study of Mus musculus with 5 samples.

Results

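The nuclear genes for subunits of the mitochondrial respiratory chain and of ATP synthase were followed across 5 libraries of mouse E14 embryonic stem cells. Members were chosen by symbol: names that start with Nduf and a, b, c, s or v and a digit (complex I, NADH dehydrogenase), with Uqcr (complex III), with Cox4 to Cox8 (complex IV, cytochrome c oxidase), or with Atp5 (complex V, ATP synthase). The rule found 81 symbols, of which 71 had a mean of at least 1 FPKM and are called members here, among 9590 genes that passed the same minimum. FPKM corrects the fragments of a transcript for its length in kilobases and for the mapped fragments of the library. By complex, 35 members belonged to I, 8 to III, 14 to IV and 14 to V. Mean FPKM was 1.13 for Cox7b2, just inside the minimum, and 0.786 for Cox4i2, just outside it.

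Each group was 1 library, so no difference between a pair of libraries has a replicate check. The groups were normal E14 cells and E14 cells labelled as overexpressing hexokinase 2 and pyruvate kinase M2 (Hk2/Pkm2 cells), each grown with leukemia inhibitory factor (LIF), the cytokine that holds mouse stem cells undifferentiated, or kept without LIF for 24 h and then given LIF again. Below, the groups kept without LIF for 24 h are called withdrawal, which includes LIF being given again. The fifth library was from Hk2/Pkm2 cells after 40 days without LIF. The labels give the strain as C57BL/6 and the stage as E14 for every library. They do not say how the transgenes were driven or whether the cells were a clone or a pool.

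Complexes I, III and IV carry electrons from NADH to oxygen and pump protons across the inner mitochondrial membrane, and complex V lets the protons back to make ATP. Most subunits are encoded in the nucleus and a few in mitochondrial DNA. The series set cells labelled as overexpressing 2 glycolytic enzymes beside normal cells, and these genes stand for the other main route to ATP.

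The libraries held roughly 33750000 to 41250000 fragments, estimated from their lowest values in steps of 2500000. Hk2 was 76.2 FPKM in normal and 98.6 in Hk2/Pkm2 cells with LIF, and 49.7 and 59.0 after 24 h withdrawal. Pkm, which makes pyruvate kinase M1 and M2, was 510 and 567 with LIF, and 611 and 564 after withdrawal, so for Pkm the library labelled Hk2/Pkm2 was not higher in that culture. At 40 days the Hk2/Pkm2 cells had 29.0 FPKM of Hk2 and 495 of Pkm, each the lowest of the 5 libraries. All 9 pluripotency markers were detected at 1 FPKM or more in every library. Their summed FPKM was 3460 and 3329 with LIF in normal and Hk2/Pkm2 cells, 2958 and 2883 after 24 h, and 1969 at 40 days. Pou5f1 and Dppa5a carry these sums, and the 9 genes' median log2 ratio after 24 h was -1.16 in normal and -0.42 in Hk2/Pkm2 cells. At 40 days the summed FPKM of 6 endoderm markers was 51.3, against 1.91 to 4.79 elsewhere, with Afp listed at 0 in every library. Gata4, Sox7 and Gata6 made up most of the 40 day sum, at 25.6, 16.1 and 7.88 FPKM. Sox17 was listed at 0 at 40 days and at 0.0199 to 0.0672 elsewhere. The 4 trophoblast markers summed to 76.1 at 40 days, against 8.26 to 16.6 elsewhere. Krt18 and Krt8 made up nearly all of the 40 day sum, at 54.2 and 21.6 FPKM, while Cdx2 and Elf5 were at 0.294 and 0.096. The 4 neural markers summed to 9.89 at 40 days, against 3.58 to 5.25 elsewhere, with Nes at 5.94 FPKM at 40 days. Fibroblast and feeder markers summed to 0.993 to 5.88, of which Thy1 was 4.26 at 40 days, and mesoderm markers to 0.446 to 1.28. In bulk RNA, fewer cells of a type and less RNA per cell cannot be told apart.

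**Figure D1:**
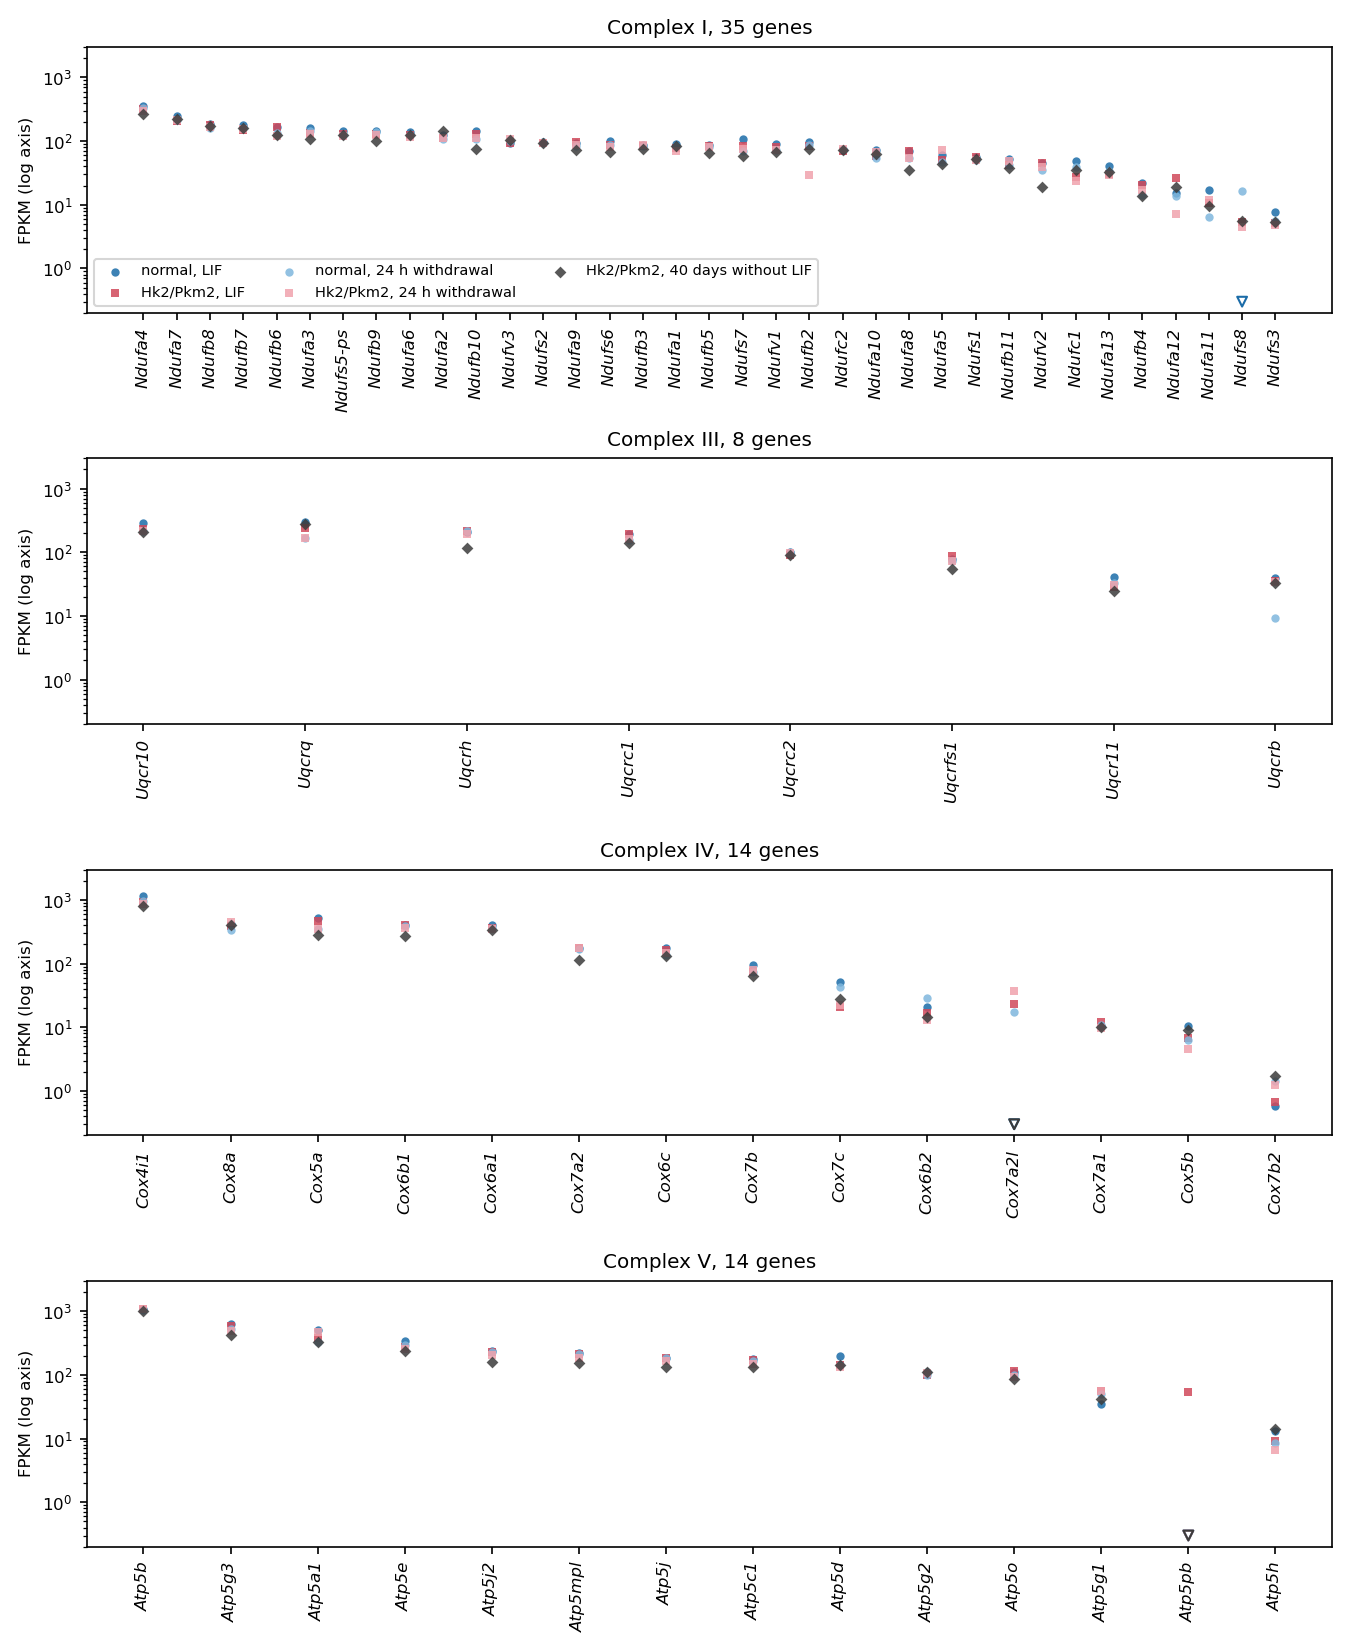
FPKM (log axis) of every member in each of the 5 libraries, by complex. Open triangles at the bottom mark members listed at 0. Members span about 3 orders of magnitude, and 1 gene's points usually lie close together.

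Complex V and complex IV held the most abundant members. Atp5b, the catalytic beta subunit of ATP synthase (mm9 chr10:127520329-127527447), had 1075 and 1097 FPKM in normal and Hk2/Pkm2 cells with LIF, 1063 and 1083 after 24 h, and 996 at 40 days. Its highest value was 1.10 times its lowest. Cox4i1, a core-associated subunit of cytochrome c oxidase (mm9 chr8:123192190-123198109), had 1153 and 939 FPKM with LIF, 951 and 859 after 24 h, and 802 at 40 days. Normal cells with LIF stood highest for Cox4i1, and the 40 day library lowest. Atp5g3, which encodes the membrane ring subunit c, had 622 and 592 FPKM with LIF, 531 and 484 after 24 h, and 430.0 at 40 days. Atp5a1, the alpha subunit, had 505 and 375 FPKM with LIF, 325 and 477 after 24 h, and 328 at 40 days, so the order of the 2 cell types differed between the cultures. Atp5c1, the gamma subunit that turns inside the catalytic head, ranged from 134 to 180.1 FPKM, lowest at 40 days. By mean FPKM, the 3 highest of complex IV were Cox4i1, Cox8a and Cox5a, at 941, 399.6 and 393.

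In complex I the highest means belonged to Ndufa4 (312 FPKM), Ndufa7 (219) and Ndufb8 (173). Ndufa4 was first described as a complex I subunit and is now placed in complex IV, but the symbol rule counts it in complex I. Core subunits of the electron path described here were lower. Ndufs1, an iron-sulfur subunit, lay between 50.05 and 56.5 FPKM in the 5 libraries, and Ndufv1, which binds NADH, between 68.1 and 90.2. Ndufs1 had a highest value 1.13 times its lowest, and Ndufv1 was lowest at 40 days. In complex III, Uqcr10, Uqcrq and Uqcrh had the highest means, at 234, 230.3 and 190.0 FPKM. Uqcrfs1, the Rieske iron-sulfur protein, ranged from 55.6 FPKM at 40 days to 88.9 in Hk2/Pkm2 cells with LIF.

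Among subunits with tissue forms, the widespread form was the abundant one here. Cox4i2, a form known from lung, stayed between 0.24 and 1.63 FPKM, beside Cox4i1 at 802 to 1153. Cox6a2 and Cox8b, forms known from heart and muscle, had little or no signal: Cox6a2 reached 0.331 FPKM in 1 library and Cox8b was listed at 0 in all 5, while Cox6a1 ranged from 336 to 403 and Cox8a from 338 to 451. Cox8c reached 0.0894 FPKM in 1 library. Cox6b2, known from testis, had 21.2 and 16.6 FPKM with LIF, 29.1 and 13.2 after 24 h, and 14.7 at 40 days, beside Cox6b1 at 271 to 411. Cox7a1, the muscle form, ranged from 9.86 to 12.2 FPKM, beside Cox7a2 at 113 to 178, with the lowest Cox7a2 value at 40 days. Ndufa4l2, known as a hypoxia-induced relative of Ndufa4, was listed at 0 throughout. Of the 3 genes that encode ATP synthase subunit c, Atp5g3 was the highest. Atp5g2 had 110.4 and 98.2 FPKM with LIF, 101 and 105 after 24 h, and 109.6 at 40 days. Atp5g1 had 34.7 and 55.6 with LIF, 49.4 and 56.2 after 24 h, and 42.0 at 40 days, and was higher in Hk2/Pkm2 cells in both cultures. Both Atp5g1 and Atp5g2 have near-identical copies in the genome, so their values are uncertain.

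The levels of most members ranged little over the 5 libraries. Among the 68 members above 0 in every library, the median ratio of the highest to the lowest library was 1.43. It was 1.86 over all 8841 such genes, and 1.49 over the 1104 with a mean of at least 50 FPKM. A range of at least 2-fold was seen in 16.2% of those members, against 45.1% of all such genes and 22.3% of the abundant ones. By complex the median range was 1.36-fold for I, 1.65 for III, 1.51 for IV and 1.43 for V. The 11 members with a range of at least 2-fold were Atp5h, Cox5b, Cox6b2, Cox7b2, Cox7c, Ndufa11, Ndufa12, Ndufb2, Ndufc1, Ndufv2 and Uqcrb. Counting error alone, from the estimated depth and transcript length, was 1.92% in a median member's lowest library and 28.6% for Cox7b2.

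Normal cells with LIF held the highest value for 46 of the 71 members (64.8%), against 22.02% of all tested genes and 31.5% of those with a mean of at least 50 FPKM. The 40 day library held the lowest for 36 (50.7%), against 27.2% of all tested genes and 47.3% of the abundant ones. Of the 8 complex III members, 6 were highest in normal cells with LIF and 6 were lowest at 40 days. Relative to normal cells with LIF, the summed FPKM of complex I was 89.9% in Hk2/Pkm2 cells with LIF, 87.5% and 84.1% after 24 h in normal and Hk2/Pkm2 cells, and 80.5% at 40 days. For complex III the same shares were 90.2%, 77.9% and 77.7%, and the 40 day library summed to 940.0 FPKM against 1253 in normal cells with LIF. For complex IV they were 88.5%, 84.1%, 83.3% and 71.7%, and for complex V 94.3%, 89.0%, 88.7% and 77.6%. The summed FPKM of all transcripts, on the same footing, was 91.8%, 98.4%, 93.1% and 91.9%. With LIF, the sums of complexes I and III in Hk2/Pkm2 cells were therefore near that of all transcripts and that of complex V above it. After 24 h and at 40 days all 4 complexes stood below it. A few abundant members carry these sums.

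**Figure D2:**
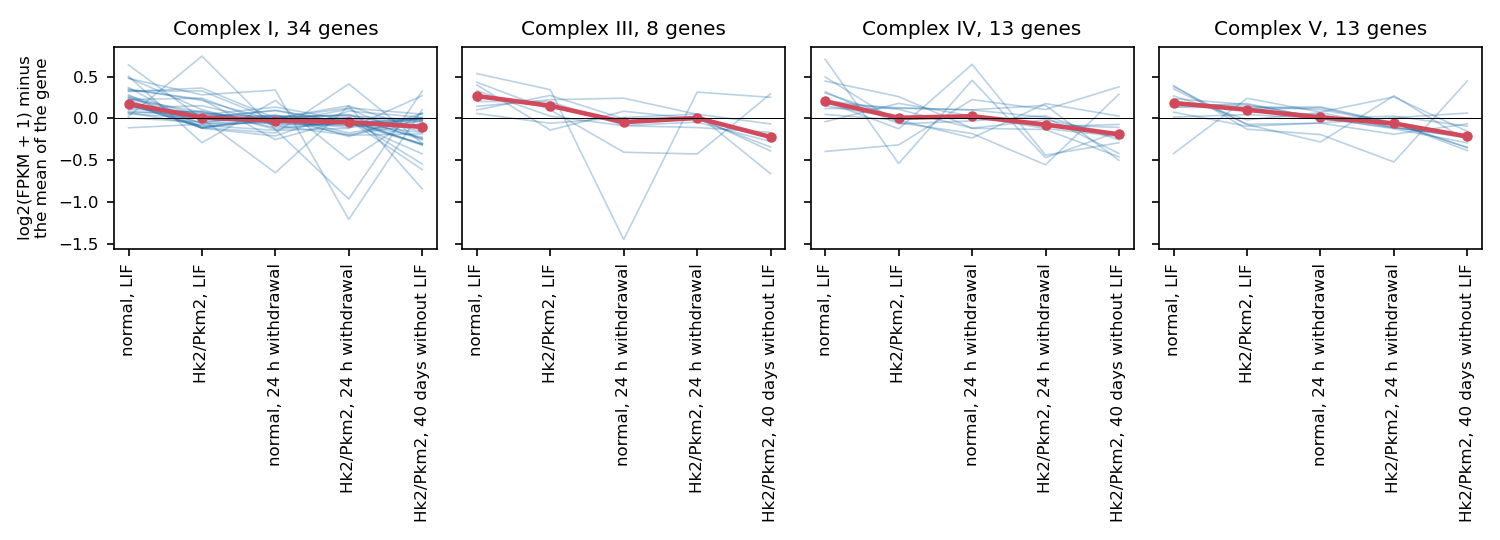
Level of each member never listed at 0, as log2 of its FPKM plus 1 relative to its mean over the 5 libraries, by complex, with the median in red. Most lines lie above 0 in normal cells with LIF and below 0 at 40 days.

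The members were next compared between pairs of libraries on the scale of log2(FPKM + 1), where a fold change of low genes is understated. With LIF, the median log2 ratio of Hk2/Pkm2 to normal cells was -0.14 over the members, against -0.04 over all tested genes. The Hk2/Pkm2 library was lower for 53 of 71 members, where 55.1% of all genes were lower. Other sets were alike in this comparison: 62.8% of genes with a mean of at least 50 FPKM were lower, with a median of -0.08, as were 71.2% of mitochondrial ribosomal protein genes (median -0.14) and 76.2% of cytosolic ones (median -0.24). Complexes I, III, IV and V had medians of -0.16, -0.16, -0.12 and -0.07. With quantile normalization the members' median was -0.04, and with the libraries scaled to the same summed FPKM it was -0.01, and the medians of complexes IV and V turned to 0.00063 and 0.06. At least 2-fold differences were seen in 4 members, against 9.43% of all genes. They were Cox7c, which was lower, and Ndufs8, Cox7a2l and Atp5pb, which were listed at 0 in normal cells with LIF.

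After 24 h withdrawal the same cell types stood close together. The median log2 ratio was -0.02 over the members and -0.02 over all genes, with 31 members higher and 39 lower in Hk2/Pkm2 cells (52.8% of all genes lower). Complexes I and III had medians of 0.00182 and 0.0000419, complex IV of -0.09 and complex V of -0.13. The members' median was 0.03 with upper quartile scaling. At least 2-fold differences were seen in 5 members, against 9.37% of all genes: Cox7a2l and Uqcrb were higher, and Ndufb2, Ndufs8 and Cox6b2 lower, in Hk2/Pkm2 cells.

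Across both cultures, 31 members (43.7%) were lower in Hk2/Pkm2 cells each time, against 35.4% of all genes, and 9 (12.7%) were higher each time, against 26.6%. The 9 were Ndufa8, Ndufa9, Ndufv2, Ndufv3, Uqcrfs1, Cox7a2, Cox7a2l, Atp5b and Atp5g1. Cox7c, a small subunit of cytochrome c oxidase (mm9 chr13:86184421-86186509), had 51.4 FPKM in normal and 21.0 in Hk2/Pkm2 cells with LIF, 43.0 and 22.1 after 24 h, and 27.7 at 40 days. The 3 Hk2/Pkm2 libraries lay below both normal ones. Ndufc1, a small membrane subunit of complex I (mm9 chr3:51208599-51212910), had 48.0 and 27.2 FPKM with LIF, 39.1 and 23.4 after 24 h, and 35.2 at 40 days, and showed the same order. In limma's fit across all genes the cell type effect was -1.09 ± 0.13 (SE) for Cox7c and -0.76 ± 0.08 for Ndufc1 on the log2 scale, with an adjusted p of 0.512 for each. Among members never listed at 0, Ndufb2 had -0.87 ± 0.44, and the highest positive estimates were 0.79 ± 0.63 for Uqcrb, 0.42 ± 0.17 for Atp5g1 and 0.17 ± 0.17 for Cox8a.

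Withdrawal of LIF for 24 h, with LIF then given again, was compared with LIF in each cell type, in pairs that share no library. In normal cells the members' median log2 ratio was -0.20, against -0.01 over all genes, and 60 of 71 members (84.5%) were lower, where 50.9% of all genes and 59.5% of genes of at least 50 FPKM were. Complexes I, III, IV and V had medians of -0.22, -0.30, -0.19 and -0.13. In Hk2/Pkm2 cells the members' median was -0.11, against 0.00422 over all genes, and 51 (71.8%) were lower, where 48.6% of all genes and 43.7% of genes of at least 50 FPKM were. The complexes' medians were -0.08, -0.16, -0.10 and -0.18. Cytosolic ribosomal protein genes had medians of -0.19 in normal and 0.08 in Hk2/Pkm2 cells, and mitochondrial ribosomal protein genes -0.13 and -0.01. Lower in normal and Hk2/Pkm2 cells were 67.9% and 35.7% of the cytosolic and 82.2% and 53.4% of the mitochondrial ones. With quantile normalization the members' median was -0.10 in normal cells and -0.09 in Hk2/Pkm2 cells. In the same comparisons the 4 primed epiblast markers had medians of 1.18 in normal and 2.58 in Hk2/Pkm2 cells. Their summed FPKM with LIF and after 24 h was 41.3 and 70.6 in normal cells, and 20.1 and 209.8 in Hk2/Pkm2 cells. Dnmt3b was the largest part of each sum, at 35.8 and 31.7 in normal cells, and 11.2 and 143.6 in Hk2/Pkm2 cells. The other 3 markers were higher after 24 h in both cell types. The part of these differences in the members' values was not tested. Whether the members' differences differed between the cell types was not tested.

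**Figure D3:**
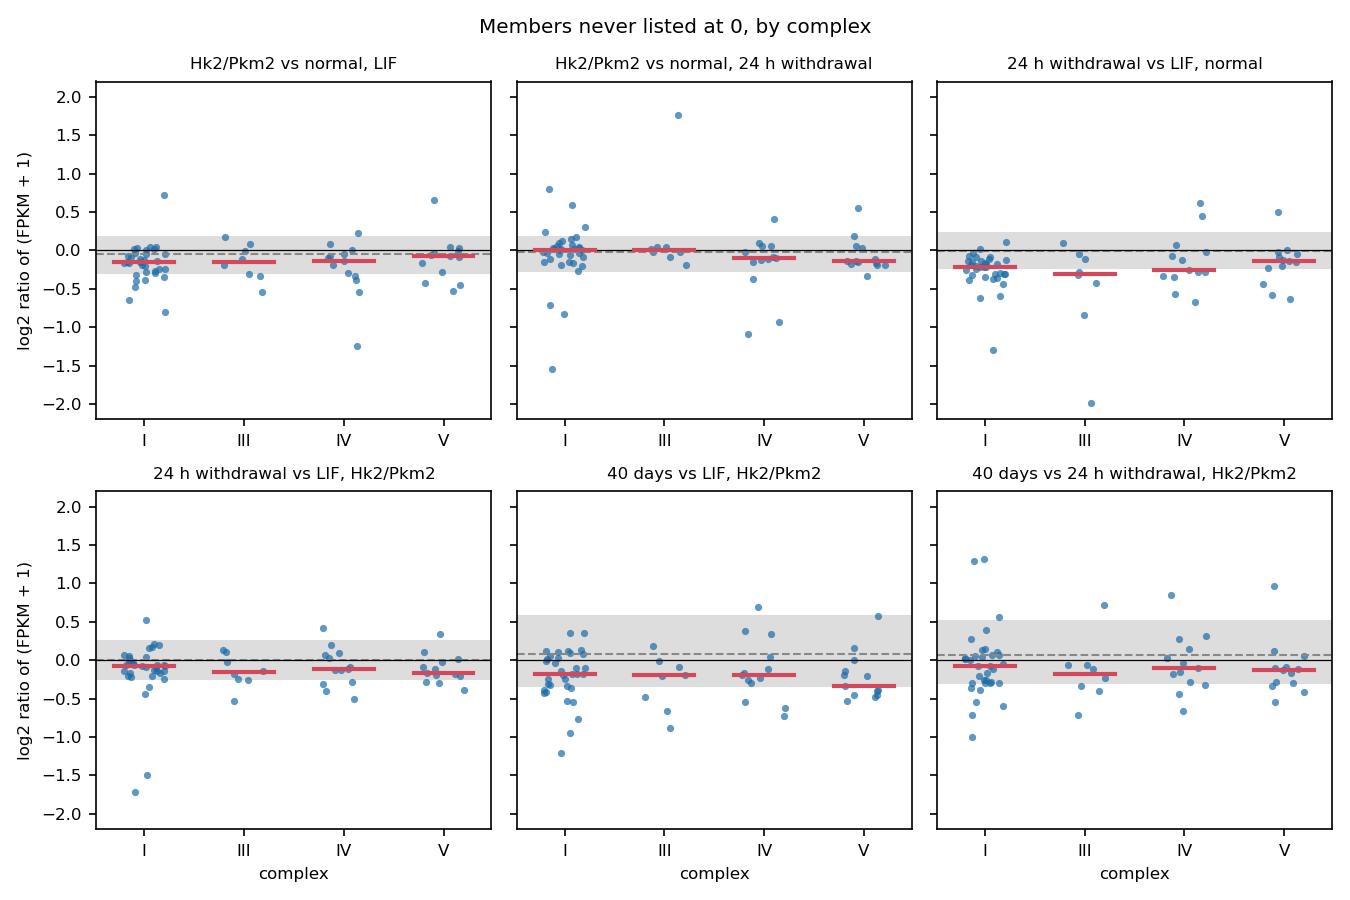
Log2 ratio of FPKM plus 1 of the members never listed at 0, by complex, in the 6 comparisons. Red bars are the complex medians, the dashed line is the median of all tested genes and the grey band their middle 50%. All 4 red bars lie below the dashed line in every panel except Hk2/Pkm2 against normal cells after 24 h withdrawal.

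At least 2-fold differences after 24 h were seen in 4 members in normal cells, against 10.1% of all genes, and in 3 in Hk2/Pkm2 cells, against 11.9%. In normal cells Uqcrb and Ndufa11 were lower, and Ndufs8 and Cox7a2l were higher. In Hk2/Pkm2 cells Ndufb2, Ndufa12 and Atp5pb were lower. The differences of most members were therefore small. In both cell types 45 of 71 members (63.4%) were lower after withdrawal, against 31.6% of all genes and 33.1% of genes of at least 50 FPKM. They were 25 of 35 in complex I, 5 of 8 in complex III, 6 of 14 in complex IV and 9 of 14 in complex V. This count takes any amount lower. At least 1.2-fold lower were 38.0% of members in normal cells, against 23.2% of all genes and 19.6% of the abundant ones. In Hk2/Pkm2 cells it was 18.3% of members, against 23.9% and 15.5%. The same shares in normal and Hk2/Pkm2 cells were 40.5% and 15.5% of cytosolic ribosomal protein genes, and 27.4% and 12.3% of mitochondrial ones. At least 1.2-fold lower in both cell types were 6 of the 71 members (8.45%). This count was not made over all genes, so it has no background share beside it. Cox5a, a matrix-side subunit of cytochrome c oxidase (mm9 chr9:57369039-57380231), had 524 and 460.3 FPKM with LIF, 354 and 349.9 after 24 h, and 279 at 40 days. Both withdrawn libraries were below both LIF libraries, and the 40 day library was lower still. Uqcrq, a small subunit of complex III (mm9 chr11:53241424-53244333), had 302 and 240.2 FPKM with LIF, 169 and 166 after 24 h, and 274 at 40 days, so the 40 day library lay among the LIF libraries. Ndufa8, an accessory subunit with paired cysteines (mm9 chr2:35891846-35904926), had 69.4 and 69.5 FPKM with LIF, 54.1 and 54.2 after 24 h, and 35.6 at 40 days. Ndufb6, in the membrane arm of complex I, had 164 and 166 with LIF, 132 and 122 after 24 h, and 123 at 40 days.

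The limma effect of withdrawal was -0.68 ± 0.12 for Uqcrq, -0.48 ± 0.10 for Cox5a, -0.38 ± 0.08 for Ndufb6 and -0.35 ± 0.07 for Ndufa8, with adjusted p of 0.344, 0.359, 0.361 and 0.354. Uqcrc1, a core protein of complex III, and Cox5b, a zinc-binding subunit of complex IV, had -0.27 ± 0.07 and -0.59 ± 0.15, with adjusted p of 0.409 and 0.400. Among members never listed at 0, the largest negative estimates were less precise, at -1.01 ± 0.63 for Uqcrb, -0.94 ± 0.51 for Ndufa12 and -0.82 ± 0.44 for Ndufb2. The largest positive ones among the same members were 0.52 ± 0.16 for Cox7b2, 0.26 ± 0.17 for Atp5g1 and 0.15 ± 0.07 for Ndufv3. No gene of 9590 passed an adjusted p of 0.05 in limma for cell type or for withdrawal (0%). At an unadjusted p under 0.05, limma called 918 genes for cell type (9.57%), of which 2 were members (2.82%), and 1154 for withdrawal (12%), of which 6 were members (8.45%). The 2 and the 6 are the genes described above, and the members' shares were under those of all genes. The fit has 1 residual degree of freedom, so its p measures only how far the 2 cultures, or the 2 cell types, agree.

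The 40 day library of Hk2/Pkm2 cells was compared with the same cells in LIF and after 24 h, 2 comparisons that share the 40 day library. Against LIF the members' median log2 ratio was -0.19, where all genes had 0.08 and genes with a mean of at least 50 FPKM had -0.12. In this comparison 51 members (71.8%) were lower, against 44.8% of all genes and 59.5% of those abundant genes. Complex V had the lowest median, -0.36, and complexes I, III and IV had -0.18, -0.20 and -0.21. Against 24 h the members' median was -0.11 and that of genes of at least 50 FPKM was -0.17, with 46 members lower (64.8%), against 44.8% of all genes and 66.0% of those abundant genes. Mitochondrial ribosomal protein genes had medians of -0.13 against LIF and -0.16 against 24 h, with 61.6% and 69.9% lower. Cytosolic ones had medians of 0.16 and 0.04, with 33.3% and 45.2% lower. At least 2-fold differences were seen in 3 members in each comparison, against 22.3% and 17.8% of all genes. Against LIF these were Ndufv2, Cox7a2l and Atp5pb, all lower, and against 24 h Ndufb2 and Ndufa12 were higher and Cox7a2l lower. With quantile normalization the members' median against 24 h was -0.04, beside -0.05 over all genes. The summed endoderm and neural markers given above and, of the trophoblast list, Krt8 and Krt18 were higher in the 40 day library. Their part in these differences was not tested.

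Ndufv2, a flavoprotein-side subunit of complex I with an iron-sulfur cluster (mm9 chr17:66428135-66450899), had 44.7 and 46.0 FPKM with LIF, 35.6 and 39.6 after 24 h, and 19.3 at 40 days. Its log2 ratio at 40 days was -1.21 against LIF, the only member never listed at 0 that was at least 2-fold lower. Uqcrh, the hinge protein of complex III (mm9 chr4:115739570-115747676), had 205 and 217 FPKM with LIF, 219.6 and 192 after 24 h, and 117 at 40 days. Ndufb10, in the membrane arm of complex I (mm9 chr17:24859005-24861423), had 142 and 129 with LIF, 109 and 111 after 24 h, and 75.5 at 40 days. For these 3 genes the 40 day library was the lowest of the 5.

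Some members departed in a single library. Uqcrb, a small subunit of complex III, had 9.33 FPKM in normal cells after 24 h and 32.7 to 40.0 in the other 4 libraries. Ndufb2, in the membrane arm of complex I, had 29.0 FPKM in Hk2/Pkm2 cells after 24 h and 73.9 to 96.0 elsewhere. Ndufa12, an accessory subunit, had 15.4 and 26.0 FPKM with LIF, 13.6 and 7.22 after 24 h, and 19.2 at 40 days. Of members listed at 0 in a library, Ndufs8 had 0 in normal cells with LIF and 4.48 to 16.4 elsewhere, Cox7a2l had 0 in normal cells with LIF and at 40 days and 17.1 to 37.2 elsewhere, and Atp5pb had 53.2 in Hk2/Pkm2 cells with LIF and 0 elsewhere. Such a 0 can be a failed estimate, and no fold is given for these 3. Ndufs5, Atp5l, Atp5md, Cox8b and Ndufa4l2 were listed at 0 in all 5 libraries. Atp5k in normal cells with LIF and Ndufs4 in Hk2/Pkm2 cells after 24 h held a hyphen and were left out of the tests. Ndufs5-ps, a pseudogene by its name, had 144 and 128 FPKM with LIF, 124 and 121 after 24 h, and 125 at 40 days, beside Ndufs5 at 0. The symbol rule counts Ndufs5-ps among the complex I members, in their sums, shares and medians.

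Many subunit genes have processed copies elsewhere in the genome, and how reads that match more than 1 place were assigned is not given in the sources used. Of 80 members and left-out genes with a coding sequence on mm9, 21 had at least 1 other place with 95% identity or more over at least 80% of the coding sequence. Tested members with such a copy had a median mean FPKM of 33.0 (17 genes), and those without 126 (53 genes). Of the 11 members with a 2-fold range, Atp5h, Cox5b, Cox7c, Ndufa12 and Uqcrb had copies. The sequences below are shown because an identical or nearly identical copy leaves few or no bases by which a read can be placed. They are mm9 coding sequences, whole from the start codon for Cox7c and Uqcr11 and from base 94 to base 263 for Cox5b, with capitals at the bases that differ from the copy.
Cox7c: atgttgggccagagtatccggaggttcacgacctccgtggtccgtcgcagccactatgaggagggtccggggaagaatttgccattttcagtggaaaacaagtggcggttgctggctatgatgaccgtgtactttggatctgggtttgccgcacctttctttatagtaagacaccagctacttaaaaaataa
Cox5b: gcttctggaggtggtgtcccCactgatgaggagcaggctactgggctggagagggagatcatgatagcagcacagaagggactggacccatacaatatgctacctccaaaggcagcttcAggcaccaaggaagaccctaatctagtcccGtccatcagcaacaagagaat
Uqcr11: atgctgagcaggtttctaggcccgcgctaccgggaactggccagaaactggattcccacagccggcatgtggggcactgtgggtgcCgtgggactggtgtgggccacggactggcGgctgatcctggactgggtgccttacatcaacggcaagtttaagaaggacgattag
Cox7c has 192 coding bases and no base that differs from the copy at chr11:75413265-75413456, annotated as the pseudogene Gm12338. Cox5b has 390 bases and 3 differences, C114T, A213G and G243A, from the copy at chr13:21592898-21593287, annotated as Gm11273. Uqcr11 has 171 bases and 2 differences, C87T and G116A, from the pseudogene copy Gm16418 at chr1:168361836-168362006. Positions count from the A of the start codon, with the gene's base first. Values of Cox7c, Cox5b and Uqcr11 are therefore uncertain, and likewise those of the other members with a copy: Atp5g1, Atp5g2, Atp5h, Atp5o, Atp5pb, Cox6c, Cox7b, Ndufa12, Ndufb11, Ndufb3, Ndufb4, Ndufs3, Ndufs6 and Uqcrb. Cox5b had 10.6 and 6.91 FPKM with LIF, 6.22 and 4.57 after 24 h, and 9.01 at 40 days, far under its partner Cox5a. Ndufs5-ps had no coding sequence on mm9 to search, so its value is uncertain too. It was kept in the medians that follow. Without members that have a copy, the members' median was -0.12 for cell type with LIF, -0.18 and -0.12 for withdrawal in normal and Hk2/Pkm2 cells, and -0.19 and -0.11 at 40 days.

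**Figure D4:**
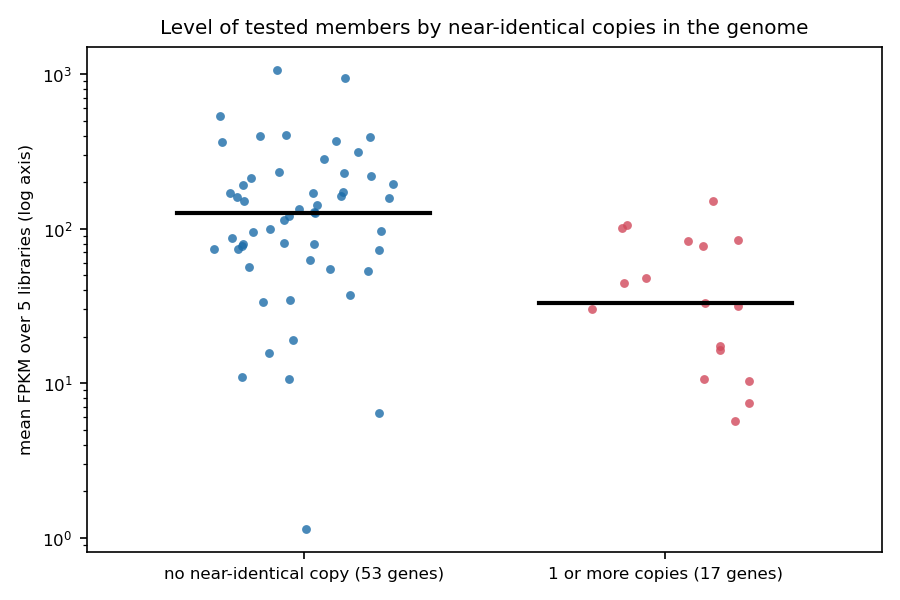
Mean FPKM over 5 libraries (log axis) of tested members without and with a near-identical copy in the genome, with the median as a bar. The medians are 126 and 33.0 FPKM, and the groups overlap.

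Nuclear respiratory genes are known targets of NRF1, of the ETS factor GABP and of YY1. RefSeq promoters of GRCm38.p6, from 250 bases before to 50 after each start, were found for 59 of the 71 members and searched on both strands for the core motifs of NRF1, of ETS factors (CCGGAAG) and of YY1, whose letters can be read from the matches in the sequences printed here. The NRF1 motif was in 22.03% of members with a promoter, 13.1% of tested genes and 5.19% of all genes in the table. The ETS motif was in 20.3%, 22.6% and 9.93%, and the YY1 motif in 6.78%, 2.88% and 0.995%. Among tested mitochondrial ribosomal protein genes the NRF1, ETS and YY1 shares were 20.3%, 37.5% and 7.81%. Among cytosolic ones they were 8.33%, 38.3% and 5%. The NRF1 motif was in 5 of 12 complex V genes, 6 of 30 in complex I, 1 of 5 in complex III and 1 of 12 in complex IV. The 250 bases before the start are shown for 4 members that hold a motif there: Ndufa8, lower after withdrawal in both cell types, Cox6a1, with an NRF1 match at 2 places, of which 1 reads as a match on both strands, Uqcrh, lowest at 40 days, and Atp5j, which has both an ETS and a YY1 match. Capitals mark the matches on either strand.
Ndufa8: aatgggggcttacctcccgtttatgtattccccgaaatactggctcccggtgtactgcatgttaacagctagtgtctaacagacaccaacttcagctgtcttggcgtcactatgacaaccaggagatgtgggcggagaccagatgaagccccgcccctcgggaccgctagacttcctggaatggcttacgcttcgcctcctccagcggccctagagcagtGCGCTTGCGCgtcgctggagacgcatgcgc
Cox6a1: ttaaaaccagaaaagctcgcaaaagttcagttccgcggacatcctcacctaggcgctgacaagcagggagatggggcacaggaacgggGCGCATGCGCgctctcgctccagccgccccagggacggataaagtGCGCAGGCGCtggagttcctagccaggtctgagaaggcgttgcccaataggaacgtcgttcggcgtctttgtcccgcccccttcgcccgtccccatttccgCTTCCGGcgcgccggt
Uqcrh: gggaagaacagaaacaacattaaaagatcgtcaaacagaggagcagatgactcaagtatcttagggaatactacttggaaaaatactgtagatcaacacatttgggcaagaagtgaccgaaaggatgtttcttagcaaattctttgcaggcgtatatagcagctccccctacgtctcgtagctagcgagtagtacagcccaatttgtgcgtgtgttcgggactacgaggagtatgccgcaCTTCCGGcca
Atp5j: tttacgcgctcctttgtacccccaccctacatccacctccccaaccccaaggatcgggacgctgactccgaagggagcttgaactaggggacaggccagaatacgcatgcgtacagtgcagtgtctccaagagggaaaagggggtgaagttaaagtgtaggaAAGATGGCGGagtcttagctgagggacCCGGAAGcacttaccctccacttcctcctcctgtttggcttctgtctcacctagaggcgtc
All 4 are printed 5′ to 3′ in the direction of the gene, from the minus strand of chr2:36049339-36049588, chr5:115348959-115349208, chr4:116075071-116075320 and chr16:84834977-84835226. A match is a run of letters, and no binding was measured in these data.

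Genes that build or serve the complexes gave a mixed picture. The 4 subunits of complex II, which are also nuclear, were all lower after 24 h in both cell types, with medians of -0.18 and -0.18. Of 16 tested complex I assembly factors, 9 were lower after 24 h in normal and 10 in Hk2/Pkm2 cells, and of 19 complex IV assembly factors 12 and 12, where 50.9% and 48.6% of all genes were lower. The share of complex I assembly factors in normal cells, 56.2%, was near that of all genes. Of 15 tested genes of mitochondrial transcription and biogenesis, 10 were lower at 40 days than with LIF, with a median of -0.31, where 44.8% of all genes were lower. Atpif1, the inhibitor of ATP synthase, had 76.1 and 78.3 FPKM with LIF, 232 and 140.4 after 24 h, and 60.2 at 40 days. Both withdrawn libraries were above the other 3, while 9 of 14 subunit genes of the enzyme were lower after withdrawal in both cell types. Tmem70, an assembly factor of ATP synthase, had 7.67 to 7.97 FPKM in 4 libraries and 23.6 at 40 days. Slc25a4, which exchanges ADP and ATP across the inner membrane, had 191 and 133 FPKM with LIF, 152 and 60.6 after 24 h, and 131 at 40 days. Slc25a5, another such carrier, had 182 and 258 with LIF, 317 and 192 after 24 h, and 245 at 40 days. Mitochondrially encoded subunits were not analysed here.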

How the data were processed

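RNA from 5 E14 libraries, 1 per group as the labels give them, was sequenced after TruSeq preparation, which does not mark strand. The deposited table holds FPKM per RefSeq transcript, made by the authors with TopHat2 2.0.7, Cufflinks 2.0.2 and build mm9, per the submitters' processing notes. How reads with several matches were assigned is not stated there.

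Gene symbols came from RefSeq (GRCm38.p6), looked up by transcript accession (28066 of 28698 matched), and FPKM was summed per gene. The 337 genes with a hyphen in a transcript were left out, and 9590 genes with a mean of at least 1 FPKM were kept, of which 749 are listed at 0 in a library. Depth was estimated from the lowest FPKM values and transcript lengths, and intervals from it cover counting error only. Ratios are between log2(FPKM + 1) values of 2 libraries, with no test. Limma 3.58.1 (R 4.3.3, trend, Benjamini-Hochberg over all 9590 genes) was fitted on 4 libraries with cell type and culture as terms, leaving 1 residual degree of freedom and 1.46 prior degrees of freedom. The limma fit was also run on simulated data with set effects and noise, a check of the code and not of these libraries. Near-identical copies were found with BLAST 2.17.0 on NCBIM37 (mm9).

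Genes were named by rule: the 3 highest per complex, core subunits, members at least 2-fold different in a comparison, tissue forms, the largest limma effects, the genes beside the minimum and up to 3 genes of each related list. Ndufa8, Ndufb6, Ndufb10 and the sequences shown were chosen after their values were seen. The members and lists were chosen with earlier results of these data known. Alternatives changed the pseudocount, the filter, the scaling, the transcript used and the members kept. A core subunit that the rule names is not reported here.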

Additional observations from a re-analysis of the deposited data

Results flagged for a closer look

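Ndufa11 and Ndufa12, accessory subunits of complex I, differed between the cell types in opposite directions in the 2 cultures, by at least 1.4-fold each way, among members never listed at 0. For Ndufa11 the log2 ratio of Hk2/Pkm2 to normal cells was -0.64 with LIF and 0.80 after 24 h withdrawal, from 17.0 and 10.5 FPKM with LIF and 6.34 and 11.8 after withdrawal. For Ndufa12 it was 0.72 with LIF and -0.83 after withdrawal. Each value is a pair of single libraries, and the difference between the cultures was not tested. Ndufa12 has a near-identical copy in the genome.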

How the results depend on the processing

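No paired analysis was possible because each group is 1 library and the labels give no replicate numbers to pair. The limma fit does compare the cell types within each culture, and the cultures within each cell type, through its 2 terms. Leaving out a library would leave that fit no residual degree of freedom. Scaling to the same summed FPKM, chosen after the data were seen, moved the members' median for cell type with LIF from -0.14 to -0.014. The median of complex IV in that comparison turned to 0.0047 with quantile normalization and to 0.00063 with the same summed FPKM. This scaling moved the median of all genes by 0.10 for cell type with LIF, and quantile normalization moved it by -0.11 and -0.13 for the 2 comparisons at 40 days. The counts of genes at least 2-fold different, 904 and 899 for cell type with LIF and after withdrawal, 971 and 1137 for withdrawal in normal and Hk2/Pkm2 cells, and 2140 and 1710 at 40 days against LIF and 24 h, were 500, 489, 552, 652, 1168 and 910 with a mean of at least 5 FPKM. Without genes listed at 0 the first 3 were 541, 550 and 618. With quantile normalization the share of higher genes at 40 days went from 62.8% to 51.8% against LIF and from 67.6% to 53.0% against 24 h. Limma called no gene in any of 6 settings. Depth limits only low members such as Cox7b2, while the single library per group limits every comparison.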
